A study of Mus musculus with 8 samples.

Results

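The genes described here are 7 members of the Ms4a family, Ms4a1, Ms4a4b, Ms4a4c, Ms4a6b, Ms4a6c, Ms4a6d and Ms4a7, among 21515 genes measured in mouse spleen B cells. Each was measured by 1 probe set with a single gene symbol, and all 7 had values on all 8 arrays. They were selected on their levels in these same 4 groups, so their levels and differences are given as a description. Where the text states which of them the fit called, that is description too and tests nothing.

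The arrays fell into 4 groups of 2, labelled as biological replicates. LMP1 cells carried the alleles LMP1flSTOP/YFPflSTOP, and YFP control cells carried YFPflSTOP/+. Both came from female (C57BL6XBALBc) F1 mice and were treated with TAT-Cre, a cell-permeable recombinase that removes the stop cassettes, and YFP-positive cells were sorted after 2 days. CD40-activated cells were kept for 2 days with an antibody against the receptor CD40, and naive control cells went straight into RNA extraction without culture. Both came from male B6/J mice and were neither treated with TAT-Cre nor sorted. B cells of all groups were enriched from spleen by depleting cells with CD43, and neither the age of the mice nor pooling was stated. LMP1 is a membrane protein of Epstein-Barr virus that signals without a ligand, in part through the same adaptors as CD40. The design asks how cells expressing LMP1 differ from their YFP control, how CD40 activation differs from the naive state, and how LMP1 and CD40 compare. Between LMP1 and CD40-activated cells, the stimulus cannot be told apart from sex, strain, TAT-Cre, sorting and the set of arrays. The LMP1 and YFP control arrays were re-analysed from an earlier series. Neither the YFP control nor the naive control had LMP1 or the CD40 antibody. Between these controls, the 2 days of culture cannot be told apart from sex, strain, TAT-Cre, sorting and the set of arrays. Between CD40-activated and naive control cells, the antibody cannot be told apart from the 2 days of culture, which the naive control lacked and both LMP1 and YFP control cells had.

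Ms4a proteins cross the membrane 4 times and sit in complexes with other receptors at the cell surface or in internal membranes. Ms4a1 encodes CD20, the B cell surface protein that takes part in calcium entry after B cell receptor signalling and is the target of depleting antibodies. Ms4a4b is known from mouse T cells, where it sits at the plasma membrane, and Ms4a7 and several Ms4a6 genes are known from monocytes and macrophages. In the mouse most of the family lies in 1 cluster on chromosome 19, and the Ms4a4 and Ms4a6 genes are close copies of each other. Probe sets of such copies can share sequence, so a value for Ms4a4b or Ms4a4c, and likewise for Ms4a6b or Ms4a6c, may hold some signal of its copy, which was not tested.

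The copies are shown first by their promoter windows, since the members of each pair had like windows and different patterns over the groups. RefSeq windows of assembly GRCm38.p6, from 250 bases before to 50 bases after a start site, were held for 5 of the 7 genes, and Ms4a1 and Ms4a6d had none in the table used here. Capitals mark letters searched for on both strands, namely an interferon response core (GAAANNGAA), an octamer (ATGCAAAT), a PU.1 core (GAGGAA), an interferon-gamma activated site (TTCNNNGAA), a TATA box (TATAAA) and a kappaB consensus. The window of Ms4a4c is chr19:11407411-11407710 on the plus strand, and that of Ms4a4b is chr19:11443308-11443607 on the plus strand.
Ms4a4c: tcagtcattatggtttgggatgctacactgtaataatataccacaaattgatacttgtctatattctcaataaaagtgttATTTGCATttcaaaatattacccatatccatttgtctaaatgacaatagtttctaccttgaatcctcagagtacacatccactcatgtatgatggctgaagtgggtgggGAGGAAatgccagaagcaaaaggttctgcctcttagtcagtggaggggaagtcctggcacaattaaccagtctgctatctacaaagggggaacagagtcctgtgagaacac
Ms4a4b: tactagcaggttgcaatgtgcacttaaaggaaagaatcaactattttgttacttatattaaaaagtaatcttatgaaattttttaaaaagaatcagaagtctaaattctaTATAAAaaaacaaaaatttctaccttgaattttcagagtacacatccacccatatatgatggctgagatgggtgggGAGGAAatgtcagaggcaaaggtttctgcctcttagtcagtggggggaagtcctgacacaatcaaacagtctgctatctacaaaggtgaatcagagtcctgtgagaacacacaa
These windows were identical at 237 of 279 aligned bases (84.9%), and both hold the PU.1 core, 61 bases before the start in Ms4a4c and 64 bases before it in Ms4a4b. The octamer of the Ms4a4c window had no match in the Ms4a4b window, which instead held a TATAAA run 140 bases before its start.

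The Ms4a6 pair was identical at 197 of 223 aligned bases (88.3%), a higher share than in the Ms4a4 pair but over fewer aligned bases. Bases opposite a gap are not counted as aligned. The window of Ms4a6c is chr19:11469118-11469417 on the plus strand, and that of Ms4a6b is chr19:11518309-11518608 on the plus strand.
Ms4a6c: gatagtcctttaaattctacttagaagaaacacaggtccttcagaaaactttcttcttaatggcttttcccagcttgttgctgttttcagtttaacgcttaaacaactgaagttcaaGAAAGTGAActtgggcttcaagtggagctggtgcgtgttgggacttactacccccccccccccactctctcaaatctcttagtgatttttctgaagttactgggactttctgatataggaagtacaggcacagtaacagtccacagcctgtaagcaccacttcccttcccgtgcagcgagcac
Ms4a6b: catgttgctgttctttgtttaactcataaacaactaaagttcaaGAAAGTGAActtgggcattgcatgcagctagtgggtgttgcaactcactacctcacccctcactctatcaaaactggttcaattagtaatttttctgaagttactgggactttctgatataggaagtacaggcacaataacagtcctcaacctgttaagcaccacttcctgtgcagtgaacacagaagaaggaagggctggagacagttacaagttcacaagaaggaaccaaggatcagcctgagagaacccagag
Both hold the same interferon response core letters, GAAAGTGAA, which lie 133 bases before the start in Ms4a6c and 206 bases before it in Ms4a6b. The annotated starts of the pair thus fall at different places of the shared sequence.

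Ms4a7 and its next gene on the chromosome, Ms4a14, are shown because Ms4a14 was, of all genes outside the members, the one whose pattern over the arrays was most like that of Ms4a7. The window of Ms4a7 is chr19:11336097-11336396 on the minus strand, the first of its 2 RefSeq windows, and that of Ms4a14 is chr19:11314405-11314704 on the minus strand.
Ms4a7: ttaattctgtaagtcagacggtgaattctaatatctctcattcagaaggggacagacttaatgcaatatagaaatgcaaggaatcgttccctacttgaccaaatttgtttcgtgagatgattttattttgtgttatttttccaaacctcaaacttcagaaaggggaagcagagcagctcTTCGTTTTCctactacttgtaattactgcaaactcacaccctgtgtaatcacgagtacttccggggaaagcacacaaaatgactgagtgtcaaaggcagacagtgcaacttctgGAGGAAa
Ms4a14: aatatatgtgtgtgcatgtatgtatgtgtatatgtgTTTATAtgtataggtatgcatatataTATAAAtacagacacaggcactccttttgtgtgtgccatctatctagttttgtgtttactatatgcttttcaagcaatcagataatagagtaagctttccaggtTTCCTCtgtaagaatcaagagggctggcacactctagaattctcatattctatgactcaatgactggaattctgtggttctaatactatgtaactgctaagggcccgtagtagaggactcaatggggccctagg
This pair was identical at 186 of 247 aligned bases (75.3%), inside the range of 66.3% to 77.3% among all the windows of these 6 genes other than the Ms4a4 pair and the Ms4a6 pair. The Ms4a7 window holds an interferon response core 71 bases before the start and a PU.1 core after it, and the Ms4a14 window holds a PU.1 core 84 bases before the start and 2 TATA box matches farther out. Among 18 Ms4a windows of 17 genes, 5 hold the interferon response core, in Ms4a18, Ms4a6b, Ms4a6c and both windows of Ms4a7. Of all 32851 mouse windows, 8.56% hold that core, 28.3% a PU.1 core, 13.6% a TATA box match, 1.74% an octamer, 4.51% a kappaB match and 8.3% an interferon-gamma activated site. A match is a description of the letters and not evidence of binding.

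Levels below are log2 expression values as deposited, in which 1 unit is a doubling, and differences are log2 differences between group means with the standard error (SE) of the limma model over all 8 arrays. Levels of different genes are not compared, since each has its own probes. The 7 genes differed in how far their levels stood out on an array. Ms4a1, Ms4a4c, Ms4a6b and Ms4a6c lay above the array's median gene on all 8 arrays, Ms4a7 on 3, Ms4a4b on 2 and Ms4a6d on none.

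Ms4a1 was at the top of the range in every group, between the percentiles 99.3 and 99.9 of all genes. It read 11.28 and 11.31 in LMP1 cells, 11.70 and 11.87 in YFP control cells, 12.20 and 12.35 in CD40-activated cells, and 11.38 and 11.36 in naive control cells. No groups overlapped, with CD40-activated cells highest, then the YFP control, the naive control and LMP1 lowest, although the last pair lay close together. The difference was -0.49 ± 0.16 (SE, n = 2 each) for LMP1 minus YFP control and 0.91 ± 0.16 for CD40-activated minus naive control. The signs were opposite, with less CD20 message in LMP1 cells than in their control and more in CD40-activated cells than in theirs. The LMP1 difference did not pass the call rule given below, and YFP control minus naive control was 0.415. LMP1 minus CD40-activated was -0.98.

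Ms4a4b had the widest spread of group means among the members, 4.27 log2 units. It read 3.67 and 3.56 in LMP1 cells, 4.89 and 4.83 in YFP control cells, 5.40 and 5.53 in CD40-activated cells, and 7.82 and 7.94 in naive control cells. The naive arrays stood far above all others, and the groups did not overlap. The difference was -1.25 ± 0.16 for LMP1 minus YFP control, -2.42 ± 0.16 for CD40-activated minus naive control and -3.02 ± 0.16 for YFP control minus naive control. CD40-activated cells thus read 5.33-fold lower, and YFP control cells 8.11-fold lower, than the uncultured naive cells.

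T cell markers, like Ms4a4b, were highest in the naive control arrays. The summed linear level of the 11 measured of 13 T cell markers was 525 to 571 in LMP1 arrays, 629 to 848 in YFP control arrays, 760 to 947 in CD40-activated arrays and 4219 to 5217 in naive control arrays. All 11 were lower in CD40-activated than in naive control cells and in YFP control than in naive control cells at an adjusted p under 0.05 (limma, Benjamini-Hochberg over all genes), and this held when any 1 array was left out. Cd3e and Cd3g, chains of the T cell receptor complex, and the coreceptor Cd4 fell most in CD40-activated against naive control cells, by 3.28 ± 0.25 (adjusted p = 4.76e-05), 3.63 ± 0.29 and 2.99 ± 0.20 on the log2 scale. None of these arrays lists a marker at 0, as RMA values carry no detection call, but 4 of the 11 markers lay above the array median in both LMP1 arrays, 5 and 6 in the YFP control arrays, 8 in both CD40-activated arrays and 11 in both naive control arrays. NK cell markers were likewise highest in the naive arrays, with summed linear levels of 287 to 291 in LMP1, 288 to 405 in YFP control, 301 to 305 in CD40-activated and 1098 to 1584 in naive control arrays. In RNA from mixed cells, fewer cells of a type and less RNA per cell cannot be told apart. Over all genes 6.65% were lower in CD40-activated against naive control cells. The share was 7.59% in YFP control against naive control cells and 8.31% in LMP1 against YFP control cells. Between LMP1 and YFP control cells, 4 of the 11 T cell markers were lower and none higher, with a median of -0.15 over the list, beside -1.25 for Ms4a4b. That count lower was 0 without either LMP1 array, 1 without YFP control replicate 2 (where 1 was higher) or with only these groups fitted, and 2 without either CD40-activated array. The part of T cells in the Ms4a4b levels was not tested.

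**Figure D1:**
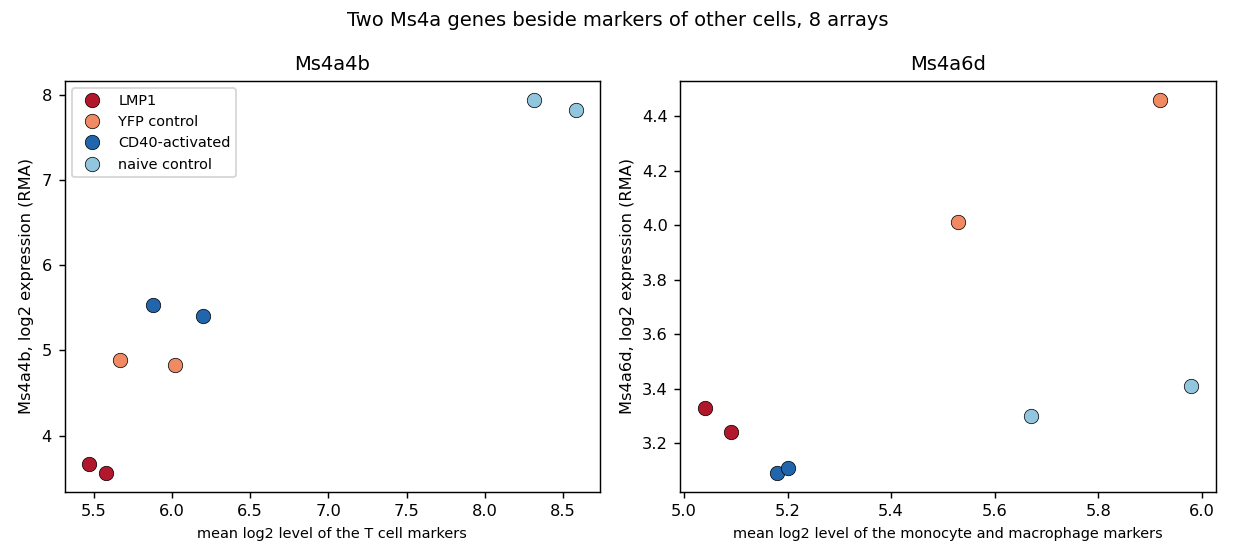
Ms4a4b (left) and Ms4a6d (right) on each of the 8 arrays, as log2 expression on the vertical axes, against the mean log2 level of the T cell markers (left) and of the monocyte and macrophage markers (right). The naive control arrays stand apart on the left panel at a mean T cell marker level of 8.31 and 8.58, while on the right panel the YFP control and naive control arrays share the range of the markers and differ in Ms4a6d.

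Ms4a4c, the copy next to Ms4a4b, had another pattern. It read 7.63 and 7.53 in LMP1 cells, 9.72 and 9.91 in YFP control cells, 9.91 and 9.78 in CD40-activated cells, and 8.81 and 8.52 in naive control cells. LMP1 arrays were lowest, naive control arrays lay between, and the YFP control and CD40-activated arrays overlapped at the top. The difference was -2.24 ± 0.18 for LMP1 minus YFP control, a 4.71-fold lower level, and 1.18 ± 0.18 for CD40-activated minus naive control, a 2.27-fold higher level. Against CD40-activated cells, LMP1 cells were 4.81-fold lower. Where Ms4a4b was highest in naive control cells, Ms4a4c was 1.15 ± 0.18 higher in the YFP control than in the naive control.

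Ms4a6b, known from mouse T cells, was lower in both stimulated groups than in their controls. It read 6.76 and 6.67 in LMP1 cells, 8.61 and 8.25 in YFP control cells, 7.24 and 7.36 in CD40-activated cells, and 8.94 and 8.70 in naive control cells. The groups did not overlap, with both controls above both stimulated groups. The difference was -1.72 ± 0.18 for LMP1 minus YFP control and -1.52 ± 0.18 for CD40-activated minus naive control, so the responses lay only -0.20 ± 0.26 apart. For the gene and the median of the T cell markers, YFP control minus naive control was -0.39 and -2.47. In the same order, LMP1 minus YFP control was -1.72 and -0.15, and CD40-activated minus naive control was -1.52 and -2.33. The part of T cells in the Ms4a6b levels was not tested.

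Its copy Ms4a6c was lowest in naive control cells instead. It read 7.68 and 7.97 in LMP1 cells, 8.06 and 7.83 in YFP control cells, 8.17 and 7.99 in CD40-activated cells, and 6.81 and 6.84 in naive control cells. The YFP control arrays overlapped both the LMP1 and the CD40-activated arrays, LMP1 arrays lay just below CD40-activated arrays, and the uncultured naive arrays lay below all others. The difference was 1.26 ± 0.18 for CD40-activated minus naive control, 1.12 ± 0.18 for YFP control minus naive control and -0.12 ± 0.18 for LMP1 minus YFP control. The sign of the last one changed with the setting, from -0.44 to 0.025.

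Ms4a6d was dim on every array, between the percentiles 5.8 and 20.0 of all genes. It read 3.33 and 3.24 in LMP1 cells, 4.01 and 4.46 in YFP control cells, 3.09 and 3.11 in CD40-activated cells, and 3.41 and 3.30 in naive control cells. The YFP control arrays stood above all others, LMP1 and naive control arrays overlapped, and CD40-activated arrays were lowest. The difference was -0.95 ± 0.19 for LMP1 minus YFP control, -0.26 ± 0.19 for CD40-activated minus naive control and 0.88 ± 0.19 for YFP control minus naive control.

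Ms4a7 had the largest difference between CD40-activated and naive control cells among the members. It read 4.63 and 4.45 in LMP1 cells, 5.49 and 6.71 in YFP control cells, 7.93 and 7.88 in CD40-activated cells, and 4.01 and 4.97 in naive control cells. CD40-activated arrays stood above all others, YFP control arrays came next and differed by 1.22 between themselves, and LMP1 and naive control arrays overlapped. The difference was 3.42 ± 0.39 for CD40-activated minus naive control, a 10.7-fold higher level, and -1.56 ± 0.39 for LMP1 minus YFP control. That last value rested on the spread of the YFP control arrays: it was -0.95 without YFP control replicate 2 and -2.17 without YFP control replicate 1, and the YFP control minus naive control difference of 1.61 became 1.00 and 2.22. Against CD40-activated cells, LMP1 cells were 10.3-fold lower.

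**Figure D2:**
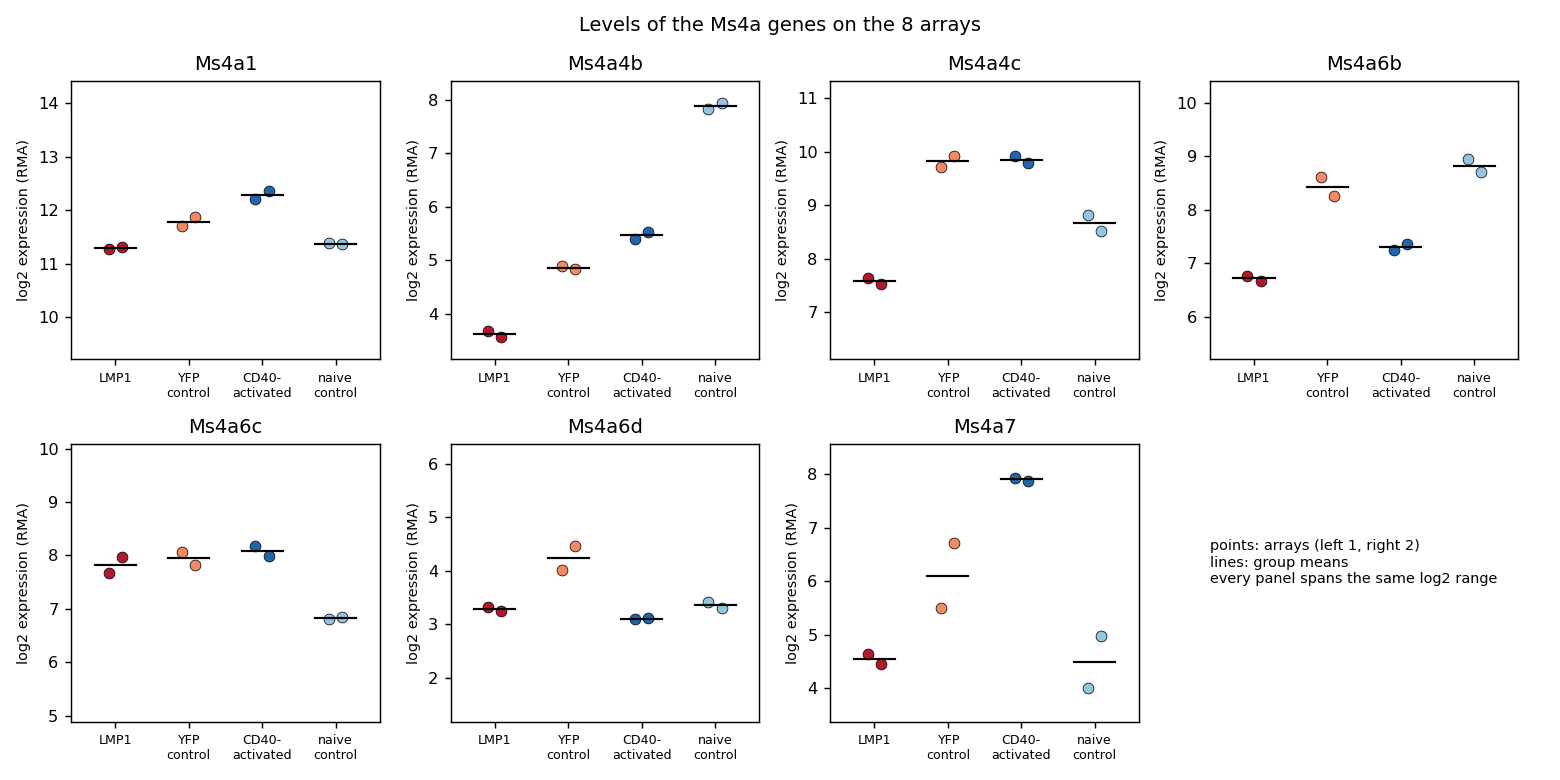
Log2 expression of the 7 Ms4a genes on each array, one panel per gene, with points for the arrays of the LMP1, YFP control, CD40-activated and naive control groups and lines for the group means, each panel spanning the same log2 height. Ms4a7 was highest in CD40-activated cells, Ms4a4b in naive control cells, and Ms4a4c lowest in LMP1 cells.

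Markers of monocytes and macrophages, in which some Ms4a genes are known, also differed between the groups. The summed linear level of the 14 measured of 15 markers was 533 to 545 in LMP1 arrays, 888 to 1318 in YFP control arrays, 568 to 577 in CD40-activated arrays and 772 to 1001 in naive control arrays. In LMP1 against YFP control cells 4 markers fell and none rose, among them Ly6c2 by 2.25 ± 0.36 (limma adjusted p = 0.00141), Adgre1, the macrophage surface protein F4/80, by 2.02 ± 0.20 (adjusted p = 1.07e-04) and Lyz2, the lysozyme of myeloid cells, by 1.91 ± 0.38 (adjusted p = 0.00475). Lyz2 read 4.91 and 5.90 in the YFP control arrays, and 6.76 and 5.69 in the naive control arrays. CD40-activated arrays, where Ms4a7 was highest, had a lower summed level of these markers than the naive control arrays, and 4 markers fell there and none rose, Lyz2 by 2.27 ± 0.38 (adjusted p = 0.00277). With either CD40-activated array or naive control replicate 1 left out, 2 fell. Csf1r, the receptor that defines the lineage, read 4.70 to 5.20 in LMP1, YFP control and CD40-activated arrays, and 5.03 and 5.72 in naive control arrays. Over all genes 8.31% fell in the LMP1 comparison and 6.65% in the CD40 comparison. The part of monocytes and macrophages in the Ms4a7 and Ms4a6d levels was not tested.

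The 11 measured of 12 B cell markers all lay above the array median on all 8 arrays. The 11 measured T cell markers did so too in both naive control arrays, so this does not check the labelled cell type. The summed linear level of the B cell markers was 19582 to 20167 in LMP1 arrays and 31765 to 37383 in YFP control arrays. It was 29768 to 30926 in CD40-activated arrays and 28506 to 28846 in naive control arrays. Replicates correlated at 0.996 in LMP1, 0.975 in YFP control, 0.993 in CD40-activated and 0.981 in naive control, and the YFP control arrays differed by more than 1 log2 unit at 950 genes, against 14 in LMP1.

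Counted by the call rule of the fit (adjusted p under 0.05), 5 of the 7 members were lower and 0 higher in LMP1 than in YFP control cells, where 8.31% of all genes were called lower and 14.9% higher. In CD40-activated against naive control cells 4 were higher and 2 lower, beside 11.0% of all genes higher and 6.65% lower. In LMP1 against CD40-activated cells 4 were lower and 0 higher, beside 5.17% lower and 9.66% higher. In the difference of the responses, LMP1 minus YFP control less CD40-activated minus naive control, 4 were lower and 1 higher, beside 4.12% lower and 4.20% higher. In YFP control against naive control cells 4 were higher and 1 lower, beside 10.9% higher and 7.59% lower. The members were chosen by these same arrays, so nothing is read from their counts. Their median difference was -1.25 for LMP1 minus YFP control, against -0.075 for all genes, and 0.91 for CD40-activated minus naive control, against -0.05. Without LMP1 replicate 2, 3 members were called lower than in the YFP control. In YFP control against naive control cells, 2 members were called higher with only those groups fitted, and without YFP control replicate 1, 2 were called lower there. Without either LMP1 or either CD40-activated array, 0 members were called higher in the difference of the responses.

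**Figure D3:**
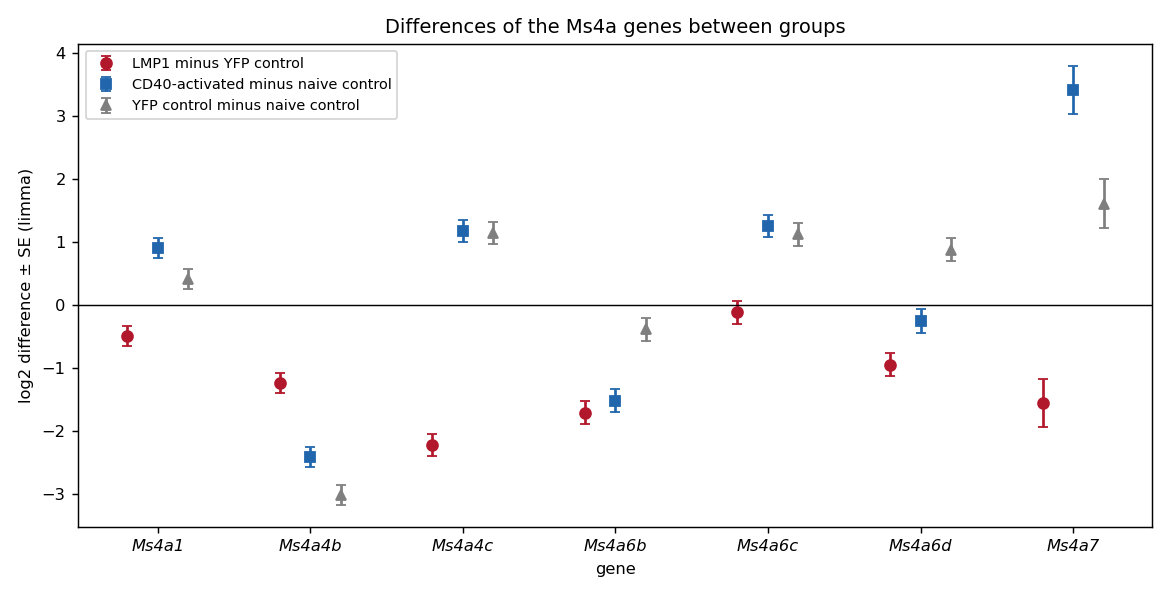
Log2 differences with their SE for the 7 Ms4a genes, in LMP1 minus YFP control, CD40-activated minus naive control and YFP control minus naive control. Ms4a1, Ms4a4c and Ms4a7 lie below 0 for LMP1 and above 0 for CD40, whereas Ms4a4b and Ms4a6b lie below 0 for both.

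The other family genes were taken from a list of 18, of which 15 were measured. Most of them varied little. The exceptions were Ms4a14, Ms4a4a and the pair Tmem176a and Tmem176b, membrane proteins related to the Ms4a family whose genes lie on chromosome 6 and are known from dendritic cells. Of these 15, 2 rose and 1 fell in LMP1 against YFP control cells (3 fell without YFP control replicate 1), and in CD40-activated against naive control cells 3 rose and 1 fell. The medians were -0.03 and -0.22. Over all genes 14.9% rose and 8.31% fell in the LMP1 comparison, and 11.0% rose and 6.65% fell in the CD40 comparison, so the counts of the list do not stand out.

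Ms4a14 followed its neighbour Ms4a7. It read 3.72 and 3.63 in LMP1 cells, 4.10 and 5.16 in YFP control cells, 7.08 and 7.24 in CD40-activated cells, and 3.48 and 4.22 in naive control cells. It rose by 3.31 ± 0.33 in CD40-activated against naive control cells (limma adjusted p = 1.92e-04). Its difference in LMP1 against YFP control cells was -0.96 ± 0.33 and did not pass (adjusted p = 0.0664), with -0.43 without YFP control replicate 2 and -1.49, past the threshold, without YFP control replicate 1. The responses differed by -4.27 ± 0.47 (adjusted p = 6.76e-04), and LMP1 minus CD40-activated was -3.49 (adjusted p = 1.40e-04).

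Ms4a4a, between Ms4a7 and Ms4a4c in the cluster, read 4.25 and 4.28 in LMP1 cells, 5.74 and 6.30 in YFP control cells, 5.55 and 5.27 in CD40-activated cells, and 5.24 and 4.73 in naive control cells. LMP1 arrays were below all others. It fell by 1.76 ± 0.24 in LMP1 against YFP control cells (limma adjusted p = 5.67e-04), and its difference for CD40-activated minus naive control was 0.43 ± 0.24 and did not pass. The responses differed by -2.18 ± 0.34 (adjusted p = 0.00396). LMP1 minus CD40-activated was -1.15 (adjusted p = 0.00955), a call lost without LMP1 replicate 1, LMP1 replicate 2 or CD40-activated replicate 1.

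Tmem176a and Tmem176b went the other way and rose in both comparisons. Tmem176b read 8.52 and 8.61 in LMP1 cells, 5.80 and 6.80 in YFP control cells, 8.84 and 8.60 in CD40-activated cells, and 6.58 and 5.99 in naive control cells. It rose by 2.27 ± 0.31 in LMP1 against YFP control cells (limma adjusted p = 5.90e-04) and by 2.44 ± 0.31 in CD40-activated against naive control cells (adjusted p = 6.74e-04). Tmem176a, next to it, rose by 2.18 ± 0.33 (adjusted p = 0.00106) and 1.72 ± 0.33 (adjusted p = 0.00609), the last of which did not pass without CD40-activated replicate 1 or 2. Dendritic cell markers, 8 of 9 measured, had a summed linear level of 1123 to 1259 in LMP1 arrays, 375 to 412 in YFP control arrays, 448 to 451 in CD40-activated arrays and 530 to 613 in naive control arrays. The summed level in LMP1 arrays was carried by Flt3, a receptor of dendritic cell progenitors, which read 9.68 and 9.46 there, and by Zbtb46. In LMP1 against YFP control cells those 2 of the 8 rose, none fell and the list median was 0.14, with Itgax, the integrin CD11c, at -0.08. Over all genes 14.9% rose and 8.31% fell there. The part of dendritic cells in the Tmem176 levels was not tested.

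The remaining 11 family genes showed spreads between 0.26 and 0.72 log2 units over their 4 group means. Ms4a10 had the widest, at 0.72, and Ms4a20 the narrowest. Ms4a2, the beta chain of the mast cell IgE receptor, read between 3.70 and 4.14 in its group means, and Ms4a3, known from granulocyte and monocyte progenitors, between 5.49 and 5.78. Ms4a19 fell by 0.53 ± 0.15 in CD40-activated against naive control cells (limma adjusted p = 0.0402), and Ms4a10 by 0.63 in YFP control against naive control cells (adjusted p = 0.0438). Both calls were lost under most of the alternatives run, 10 of 14 for Ms4a19, which has no value once dim genes are left out, and 9 of 15 for Ms4a10.

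Read along chromosome 19, most of the cluster's genes that varied lay side by side. The members among them were selected on their levels in these groups, so the run is only a description. How many of all genes vary as much was not counted. From Ms4a14 to Ms4a6b, in the order Ms4a14, Ms4a7, Ms4a4a, Ms4a4c, Ms4a4b, Ms4a6c, BE692007, Gm8369 and Ms4a6b, the spread of group means was above 1 log2 unit at every gene measured, and from Ms4a10 to Ms4a13 it was below 1 at every Ms4a gene. Ms4a1 and Ms4a5, between Ms4a13 and Ms4a14, varied by 0.98 and 0.41. Ms4a6d, past Ms4a4d, varied by 1.14 outside that run. BE692007 and Gm8369, which lie between Ms4a6c and Ms4a6b and carry no Ms4a name, also differed. BE692007 read 7.36 and 7.03 in LMP1 cells, 10.67 and 10.79 in YFP control cells, 9.16 and 9.17 in CD40-activated cells, and 9.94 and 10.20 in naive control cells. It fell by 3.54 ± 0.18 in LMP1 against YFP control cells (limma adjusted p = 5.53e-06), more than any Ms4a gene, and by 0.91 ± 0.18 in CD40-activated against naive control cells (adjusted p = 0.00738), which did not pass without CD40-activated replicate 1 or 2. Gm8369 read 8.30 and 8.01 in LMP1 cells, 9.76 and 10.54 in YFP control cells, 9.23 and 9.32 in CD40-activated cells, and 9.34 and 9.18 in naive control cells. It fell by 2.00 ± 0.25 in LMP1 against YFP control cells (adjusted p = 3.29e-04) and differed by 0.015 ± 0.25 between CD40-activated and naive control cells.

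**Figure D4:**
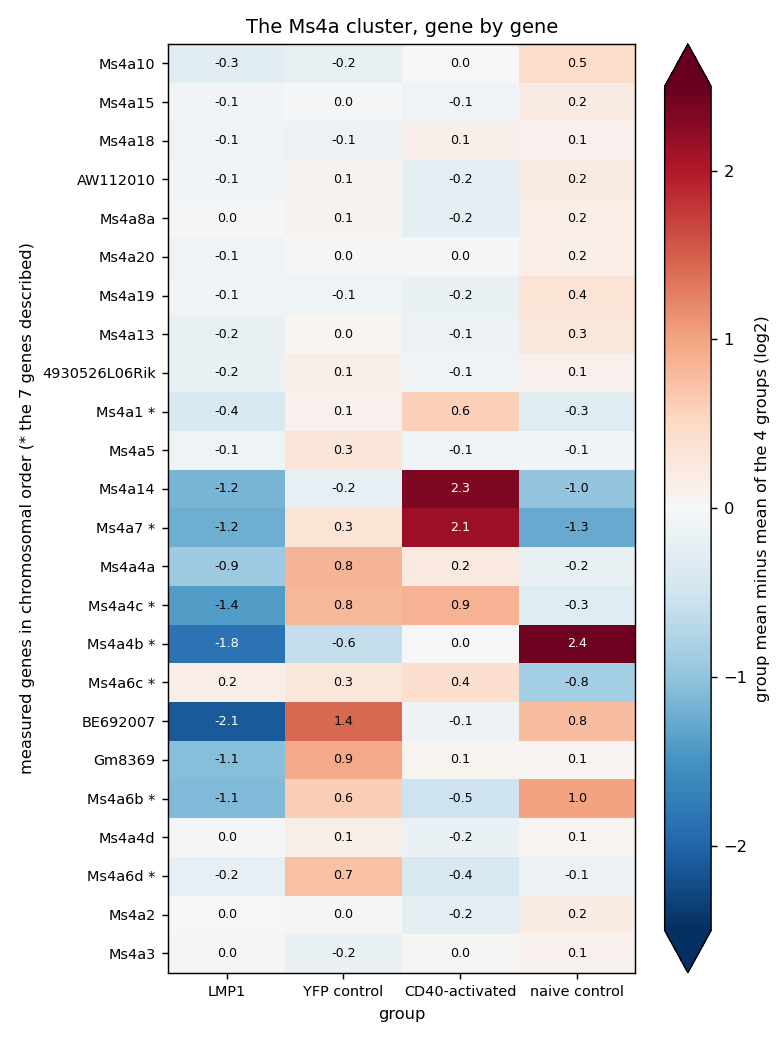
Each cell gives the group mean of a gene minus the mean of its 4 group means, in log2 units, with measured genes of the cluster down the page in chromosomal order and the groups LMP1, YFP control, CD40-activated and naive control across. The strong colours lie between Ms4a14 and Ms4a6b, with LMP1 low at most of these genes and CD40-activated high at Ms4a14 and Ms4a7.

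Outside the cluster, 10 measured genes on each side and 4 between its genes were counted. Of these 24 neighbours 5 rose and 2 fell in LMP1 against YFP control cells, and in CD40-activated against naive control cells 4 rose and 3 fell, with medians of -0.14 and -0.082. Beside the 14.9% higher and 8.31% lower of all genes with LMP1, and 11.0% higher and 6.65% lower with CD40 activation, these counts do not set the neighbours apart. Without CD40-activated replicate 1, without CD40-activated replicate 2 or without naive control replicate 2, 1 rose in the CD40 comparison, and without LMP1 replicate 2, 2 rose in the LMP1 comparison, where 4 fell without YFP control replicate 1. With all arrays, the 2 that fell with LMP1 were BE692007 and Gm8369. Those that rose were Prpf19, a splicing factor, by 1.46 ± 0.22 (limma adjusted p = 0.00118), Slc15a3, a lysosomal peptide transporter, by 1.18 ± 0.19, Ccdc86 by 1.17 ± 0.24, Tmem109 by 0.88 ± 0.19 and Oosp1 by 0.69 ± 0.21, a call kept in 7 of 15 alternatives. Tmem109 was not called without LMP1 replicate 2 or with quantile normalization within each set, and Ccdc86 was not called without LMP1 replicate 2. Slc15a3, Prpf19, Oosp1 and the mitochondrial ribosomal protein gene Mrpl16 rose in CD40-activated against naive control cells, by 1.53, 1.05, 0.89 and 1.30. The calls of Prpf19, Oosp1 and Mrpl16 there were lost without either CD40-activated array and without naive control replicate 2, and that of Mrpl16 also without naive control replicate 1 and with quantile normalization within each set. Cd5 and Cd6, surface proteins of T cells that lie beside the cluster, fell there by 1.30 ± 0.19 (adjusted p = 0.00141) and 1.27 ± 0.18 (adjusted p = 0.00130).

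Since CD20 takes part in calcium entry after B cell receptor signalling, the genes of that pathway were counted from a list of 23, of which 20 were measured. In LMP1 against YFP control cells 9 fell and 1 rose, with a median of -0.52. Over all genes 8.31% fell and 14.9% rose there, with a median of -0.075. With CD40 activation 6.65% of all genes fell and 11.0% rose, with a median of -0.05. Cd22, an inhibitory coreceptor, fell by 2.44 ± 0.18 (limma adjusted p = 2.45e-05), Itpr2, a calcium channel of the endoplasmic reticulum, by 1.61 ± 0.22 (adjusted p = 5.36e-04) and the kinase Blk by 1.46 ± 0.28 (adjusted p = 0.00428). Cd81, a tetraspanin, rose by 1.08 ± 0.21 (adjusted p = 0.00477) with LMP1 and by 1.42 ± 0.21 (adjusted p = 0.00168) with CD40 activation. In CD40-activated against naive control cells 3 of the 20 fell and 1 rose, with a median of 0.10, led by the kinase Syk, which fell by 1.45 ± 0.20 (adjusted p = 0.00101). Without LMP1 replicate 1, Cd81 was not called with LMP1. The count lower with LMP1 was 5 without LMP1 replicate 1 or LMP1 replicate 2 and 14 without YFP control replicate 2 or with quantile normalization within each set. With CD40 activation the count lower was 1 without either CD40-activated array or naive control replicate 1, and the count higher was 6 without either YFP control array, 3 with only these groups fitted and 2 with dim genes left out.

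Transcription factors of B cells, 17 of 20 measured, include factors known to act on Ms4a1. With LMP1 9 fell and 1 rose against the YFP control, with a median of -0.82, beside 8.31% lower and 14.9% higher over all genes. Klf2, a factor of resting lymphocytes, fell by 1.92 ± 0.38 (limma adjusted p = 0.00490), Ikzf3 by 1.63 ± 0.27 (adjusted p = 0.00160) and Pou2f2, the octamer-binding factor Oct-2, by 1.41 ± 0.21 (adjusted p = 0.00103). In CD40-activated against naive control cells 5 rose and 4 fell, with a median of 0.26. Over all genes 11.0% rose and 6.65% fell there. Smad3 rose by 1.54 ± 0.23 (adjusted p = 0.00178) and Pou2af1, the coactivator of the octamer-binding factors, by 1.06 ± 0.17 (adjusted p = 0.00212), while Klf2 fell by 3.03 ± 0.38 (adjusted p = 6.54e-04) and Pou2f2 by 0.86 ± 0.21 (adjusted p = 0.0207). Irf4, a factor of activated B cells, rose in both, by 0.78 ± 0.20 with LMP1 (adjusted p = 0.0166) and by 0.99 ± 0.20 with CD40 activation (adjusted p = 0.00713). The count that rose with CD40 activation was 2 without either CD40-activated array and 3 without either LMP1 array, without naive control replicate 2 or with quantile normalization within each set. The count that fell was 1 without CD40-activated replicate 1 and 2 without CD40-activated replicate 2 or either naive control array. With LMP1 the 1 that rose was not called without either LMP1 array, without YFP control replicate 2 or with only these groups fitted.

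Interferon response letters stood in the Ms4a6b, Ms4a6c and Ms4a7 windows shown above, so the levels of interferon-stimulated genes are given beside them. Of 32 such genes 26 were measured. In LMP1 cells 14 fell and 1 rose against the YFP control, with a median of -0.86. In CD40-activated against naive control cells 16 fell and 0 rose, with a median of -0.86 as well. Over all genes 8.31% fell and 14.9% rose in the LMP1 comparison, and 6.65% fell and 11.0% rose in the CD40 comparison. Oas2, Rtp4 and Ddx58, the RNA sensor RIG-I, fell with LMP1 by 2.49 ± 0.21 (limma adjusted p = 4.65e-05), 2.35 ± 0.20 and 2.16 ± 0.20. Rsad2, Cmpk2 and Irf7 fell with CD40 activation by 3.06 ± 0.36 (adjusted p = 4.64e-04), 2.13 ± 0.26 and 2.04 ± 0.24. Among the members with those letters, Ms4a6b was lower than the control in both comparisons, Ms4a6c was higher in CD40-activated cells and near its control in LMP1 cells, and Ms4a7 was lower with LMP1 and higher with CD40 activation. Ms4a18, a family gene outside the members whose window also holds them, differed by 0.06 with LMP1 and 0.005 with CD40 activation. The count of interferon-stimulated genes lower was 9 without LMP1 replicate 2 in the LMP1 comparison, and 9 without either CD40-activated array in the CD40 comparison.

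For each member, the 3 genes whose levels over the 8 arrays were most like its own were found by the root mean square difference after each gene was centred on its mean over the arrays. For Ms4a7 the nearest was Ms4a14, at 0.334 log2 units, followed by Havcr1, a cell surface protein known as TIM-1, at 0.454 and Zc3h12c at 0.463. For Ms4a4c the nearest was Tlr9, the endosomal DNA receptor, at 0.091, followed by Kmo at 0.19 and Elk3 at 0.262. For Ms4a4b they were Ep400 at 0.387, Snord90 at 0.41 and Il7r, the interleukin-7 receptor and one of the T cell markers, at 0.421. For the other members the nearest were Rbm47 at 0.068 for Ms4a1, Atp8a1 at 0.084 for Ms4a6b, Exoc6 at 0.088 for Ms4a6d and Rab7 at 0.151 for Ms4a6c. These are distances over 8 arrays in 4 groups, chosen as the smallest among all genes.

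By the same measure, the closest pair of members was Ms4a1 and Ms4a6c at 0.426, and the farthest was Ms4a4b and Ms4a7 at 2.24. Of the copies with the most alike promoter windows, Ms4a4b and Ms4a4c lay 1.624 apart, and Ms4a6b and Ms4a6c 1.23. The measure is not scaled to a gene's own spread, so it does not rank pairs by likeness of pattern alone. Ms4a4b, with the widest spread of group means, lay at least 1.044 from every other member.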

How the data were processed

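RNA of 8 mouse B cell samples was measured on Affymetrix whole-transcript arrays. The deposited values, 1 per probe set and array, are log2 intensities that the authors obtained with RMA in oligo. Both names come from the submitters' processing notes, which state no version. Of 25349 probe sets, 22225 matched 1 gene symbol, 616 several and 2508 none. Only those with 1 symbol were used, and for 640 genes with several probe sets the brightest was taken, which left 21515 genes. Array medians lay between 5.52 and 5.68, and the number of arrays limits the precision.

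A single limma model (limma 3.58.1, R 4.3.3, default lmFit and eBayes) estimated the 4 group means from the 8 arrays, with 4 residual degrees of freedom and a prior worth 5.75. Two-sided p-values received the Benjamini-Hochberg correction across the whole table, and genes under 0.05 were called. The fit was tested on simulated data. Sequences are from RefSeq (GRCm38.p6), and windows were aligned globally with Biopython 1.88.

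The members and lists were chosen with earlier results of these data known. Named genes are all measured family genes, genes beside the cluster called in a main comparison, the 3 nearest genes per member, and up to 3 genes with the highest and 3 with the lowest differences per list in the LMP1 and CD40 comparisons. Csf1r was named after its values were seen. Neutrophil markers (10) had summed linear levels of 244 to 256 in LMP1, 260 to 276 in YFP control, 255 to 274 in CD40-activated and 331 to 355 in naive control arrays, and mast cell and basophil markers (8) had 118 to 132 in LMP1, 130 to 163 in YFP control, 143 to 155 in CD40-activated and 210 to 222 in naive control arrays. Alternatives were other scalings, filters, fits, probe set means, a replicate block and leaving out each array.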

Additional observations from a re-analysis of the deposited data

Results flagged for a closer look

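For 5 of the 7 genes, and for 2 other genes of the family, the LMP1 and CD40 responses differed in the limma fit of the difference itself. The 5 were chosen with these results known, so this describes them and tests nothing. Their difference of responses (LMP1 minus YFP control, less CD40-activated minus naive control) was -4.98 for Ms4a7, -3.42 for Ms4a4c, -1.40 for Ms4a1, -1.38 for Ms4a6c and 1.17 for Ms4a4b. Leaving out either LMP1 or either CD40-activated array took Ms4a4b off the list, and leaving out LMP1 replicate 1 or CD40-activated replicate 1 took Ms4a6c off it. The other 2 were Ms4a14 at -4.27 (limma adjusted p = 6.76e-04) and Ms4a4a at -2.18 (adjusted p = 0.00396), which stayed past the threshold in all 14 alternatives run for them. The responses were measured in different strains and sexes, with and without TAT-Cre and sorting, and only the CD40 response sets cultured against uncultured cells. None of this can be told apart from the stimulus. For Ms4a6c, YFP control minus naive control was 1.12, beside 1.26 for CD40-activated minus naive control.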

How the results depend on the processing

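With 2 arrays per group, p-values rest on the spread between replicates, pooled over the 4 groups and moderated by a prior over all genes. They measure no variation beyond that between these arrays. The 7 genes' 35 differences gave 513 values under 15 alternatives. Of these, 499 moved by no more than the largest standard deviation of the groups compared. Another 14 moved by more, all under another scaling, and 0 with a call changed sign. Leaving out 1 of 2 arrays always moves a group mean by less than that standard deviation. The other fits, filters and probe set means leave these differences unchanged. Only the scalings could thus move a value, so the 499 say nothing about stability. Ms4a6d has no value when dim genes are left out. Fitting only the groups compared changed the genes called to 6360 for LMP1 minus CD40-activated (3191 in the model of all arrays) and to 1537 for YFP control minus naive control (3986). It was not run for the difference of responses, which uses all groups. Leaving out 1 array gave 2647 to 7090 genes called for LMP1 minus YFP control (4995 with all arrays), 1576 to 5631 for CD40-activated minus naive control (3803), 1275 to 4735 for LMP1 minus CD40-activated, 707 to 4199 for the difference of responses (1790) and 2695 to 5955 for YFP control minus naive control. Of the genes called in LMP1 minus YFP control, 64.2% were higher, against 53.4% with quantile normalization within each set and 71.3% with array medians subtracted. In CD40-activated minus naive control these shares were 62.4%, 52.9% and 73.3%. The cause was not tested. Replicate numbers are shared by the labels but were not shown to pair arrays: same-numbered arrays' deviations correlated at 0.065 for LMP1 and YFP control and -0.069 for CD40-activated and naive control. A replicate block gave 4959, 3647, 2993, 1739 and 3838 genes called in the same order of comparisons, and Ms4a14 then passed in LMP1 minus YFP control.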
